A study of Homo sapiens with 8 samples.

Results

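The members described here are 269 genomic sites bound by CEBPB in K562 cells and without RNA polymerase II, chosen by their class in the deposited element table (K562 binding, no Pol2) and by not being scrambled. They are 269 of the 1730 bound sites and of the 3095 elements in the library. Another 225 elements of the same class are scrambled sequences, each carrying the name of the bound site it belongs to, and serve as reference. The table does not define its class names. They were read after the title of the series as the line of CEBPB binding and the presence or absence of RNA polymerase II. Classes named as shared are separate, and K562-only or HepG2-only below means a class named for that line alone. A cis-regulatory element sequencing (CRE-seq) experiment placed every element in reporter plasmids with 4 barcodes of 9 bases each and counted the barcodes in DNA and in RNA. The plasmid library was transfected into HepG2, a human hepatocellular carcinoma line, and into K562, a human chronic myelogenous leukaemia line, with 2 transfections per line and a DNA and an RNA library from each, 8 libraries in 4 groups. Both lines received the same library with no other treatment named, and the plasmids are not in the chromosomal setting of the sites. The files count reporter barcodes only, so no marker gene of either line was measured.

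CEBPB is a basic leucine zipper transcription factor that binds DNA as a dimer and regulates metabolic genes in liver, adipocyte differentiation and inflammatory genes in myeloid cells. Many sites that such a factor occupies in a cell do not drive a reporter when moved to a plasmid. RNA polymerase II found away from promoters is a known feature of active enhancers, and the series set bound sites with it against bound sites without it.

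The barcodes of 4 members carry the findings below and are shown here, together with those of 1 scramble. They are printed as the table gives them, and the capitals mark the whole barcode, which identifies the plasmid and is not part of the tested element. At chr22:30601908 every barcode was high in both lines, and at its scramble every barcode was below 0 in K562 and near 0 in HepG2.
chr22:30601908 barcode a: ACCAACTGA
chr22:30601908 barcode b: ACGAGTCAC
chr22:30601908 barcode c: GTAGCACAC
chr22:30601908 barcode d: GTGTATTAA
chr22:30601908 scramble barcode a: AACACGTAT
chr22:30601908 scramble barcode b: CAATGGATT
chr22:30601908 scramble barcode c: CTTCGACAT
chr22:30601908 scramble barcode d: GCTAGGATC
At chr5:19019054 every barcode was high in K562.
chr5:19019054 barcode a: ACTTAGCAG
chr5:19019054 barcode b: CAGTCGCAG
chr5:19019054 barcode c: CCACGTAAA
chr5:19019054 barcode d: CCGACTGGA
The high HepG2 value of chr13:36918508 came from barcode b and that of chr6:159261618 from barcode b.
chr13:36918508 barcode a: ACATCCTGT
chr13:36918508 barcode b: AGTCCATTC
chr13:36918508 barcode c: GCGTAGGAA
chr6:159261618 barcode a: ACAATGGAA
chr6:159261618 barcode b: ATTGCGCCC
chr6:159261618 barcode c: GGAGTAGTG

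The members were thinly represented in the plasmid pool. Of the 269 members, 161 (59.9%) had at least 3 barcodes with 10 or more reads in every DNA library and were tested, against 2332 of all 3095 elements (75.3%). Among the 108 that were not tested, 18 had no passing barcode, 43 had 1 and 47 had 2. Their median was 144 DNA reads per library. Of the scrambles of the class 137 of 225 were tested (60.9%), a share close to that of the members. Of the K562-only sites with RNA polymerase II 184 of 280 were tested (65.7%). Tested members had a median of 2150 DNA reads per library and spanned 108 to 27372, against a median of 3230 for all tested elements. All 4 barcodes passed in 118 tested members and 3 barcodes in 43. Library totals lay between 9965393 and 10193122 reads. The passing barcodes of the 161 tested members took 4.73% to 4.75% of the DNA reads. They took 3.86% and 3.87% of the HepG2 RNA reads and 4.52% and 4.49% of the K562 RNA reads. Those of the 137 tested scrambles of the class took 4.77% to 4.85% of the DNA reads. Their shares were 3.49% and 3.30% of the HepG2 RNA reads and 4.35% and 4.28% of the K562 RNA reads.

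The typical member drove about as much RNA as a scrambled sequence, in the line where it is bound as in the other. Activity is given as log2 RNA/DNA after scaling on the scrambled controls, so that 0 is the typical scramble and 1 is a doubling. In K562 the median over the 161 tested members was 0.03 (0.07 and 0.02 in the 2 transfections), with quartiles of -0.21 and 0.26. In HepG2 the median was 0.07 (0.09 and 0.09), with quartiles of -0.13 and 0.33. Both medians lay well inside the spread of the members. The 137 tested scrambles of the class had medians of 0.00 in K562 and 0.03 in HepG2, and all 2332 elements medians of 0.02 and 0.05. The 1125 tested bound sites of the other classes had medians of 0.07 and 0.14. Values above 0 were seen in 88 members (54.7%) in K562 and in 98 (60.9%) in HepG2, against 53.2% and 56.4% of all elements. Members above a log2 of 1 numbered 2 in K562 and 13 in HepG2, against 86 and 223 of all 2332 elements. The HepG2 median turned to -0.02 and the K562 median to -0.01 when libraries were scaled on all elements in place of the scrambles.

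Few members were active in K562, the line of their binding. An element was called active when edgeR's quasi-likelihood test of RNA against DNA gave a Benjamini-Hochberg adjusted p under 0.05 and its log2 RNA/DNA exceeded the 95th percentile of all tested scrambles, 0.52 in K562 and 0.66 in HepG2. In K562 9 of 161 members passed (5.59%), against 8.15% of all 2332 tested elements. Of the 137 scrambles of the class 5 passed (3.65%). Among K562-only sites with RNA polymerase II 41 of 184 passed (22.3%), and among HepG2-only sites without it 23 of 298 (7.72%). Differences between these shares were not tested. The fit pools the spread of both lines, while transfections differed more in K562 than in HepG2. With each line fitted alone 6 members were active in K562 and 18 in HepG2.

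The most active member in K562 was chr5:19019054. Its DNA counts in K562 were 1928 and 1763 reads and its RNA counts 4386 and 4933. Log2 RNA/DNA was 1.41 and 1.74 in the 2 K562 transfections and 0.86 and 0.25 in those of HepG2. Both K562 values lay above both HepG2 values. The fit gave 2.98-fold more RNA than DNA in K562 (log2 1.58, SE 0.16, adjusted p = 0.000154). In K562 the 4 barcodes printed above read 1.38, 1.66, 1.46 and 1.67 from a to d, so the site did not rest on any single plasmid. In HepG2 the same barcodes read 0.93, 0.31, 0.43 and 0.39, and the site was not called there because its value lay below the cutoff (log2 0.58, adjusted p = 0.0253). Without HepG2 transfection 2 it was called active there as well (0.86, adjusted p = 0.0269). It was the only member active in K562 that was also called higher in K562 than in HepG2, by 1.0 on the log2 scale (adjusted p = 0.0159). That difference lost its call without HepG2 transfection 2 (0.72, adjusted p = 0.115) and without K562 transfection 2 (0.83, adjusted p = 0.11).

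The member chr22:30601908 was active in both lines and the highest of all members in HepG2. Its K562 counts were 4980 and 5336 reads in DNA and 9458 and 12066 in RNA, and its HepG2 counts 5011 and 5300 in DNA and 26315 and 26242 in RNA. Log2 RNA/DNA was 1.15 and 1.43 in the K562 transfections and 2.99 and 2.94 in the HepG2 transfections. Both HepG2 values lay above both K562 values. In the fit RNA exceeded DNA 2.47-fold in K562 (SE of the log2 value 0.11, adjusted p = 4.81e-05) and 7.82-fold in HepG2 (SE 0.12, adjusted p = 5.82e-08). Barcodes a to d read 1.41, 1.26, 0.95 and 1.81 in K562 and 3.03, 3.17, 2.57 and 3.35 in HepG2. The order of the 4 barcodes was nearly the same in both lines, with barcode c lowest and barcode d highest. The 4 barcodes of its scramble lay between -0.51 and -0.16 in K562 and between -0.13 and 0.08 in HepG2.

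The members chr4:154435991 and chr18:46461173 were also active in both lines, with every barcode above 0. At chr4:154435991 log2 RNA/DNA was 1.07 and 0.83 in K562 (adjusted p = 5.16e-05) and 1.53 and 1.43 in HepG2 (adjusted p = 8.24e-07). At chr18:46461173 the values were 0.81 and 0.91 in K562 (adjusted p = 0.000196) and 2.07 and 2.22 in HepG2 (adjusted p = 1.27e-07). In both members the HepG2 transfections lay above the K562 transfections. The barcodes of chr4:154435991 spanned 0.73 to 1.14 in K562 and 1.14 to 1.74 in HepG2, and those of chr18:46461173 0.32 to 1.24 and 1.90 to 2.37.

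The other 5 members called active in K562 rested on less. At chr12:8139472 log2 RNA/DNA was 0.71 and 0.63 (adjusted p = 0.00762), with barcodes from -0.17 to 1.57, and without its highest barcode the value fell to -0.03 (adjusted p = 0.943). At chr14:93260117 it was 0.42 and 1.18 (adjusted p = 0.0499), and 0.18 (adjusted p = 0.774) without the highest of its 3 barcodes. Its transfections differed by about as much as its mean. At chr1:241913412 the K562 values were 0.42 and 0.65 (adjusted p = 0.035), yet its barcodes spanned -4.73 to 1.73 and the value turned to -0.87 (adjusted p = 0.329) without the highest. At chr18:20047973 they were 0.38 and 0.70 (adjusted p = 0.0189), with all 3 barcodes above 0 (from 0.22 to 1.03), and at chr19:18497661 0.46 and 0.65 (adjusted p = 0.00409). With the highest barcode removed, chr18:20047973 lost its call at 0.40 (adjusted p = 0.147), whereas chr19:18497661 passed at 0.46 (adjusted p = 0.0316) against the cutoff of that setting. The setting removes the highest barcode of every element and keeps the scaling of the full counts. Values in it were lower in general, with a member median of -0.16 in K562, and 0 no longer marked the typical scramble. Each of these 5 calls also ended when 1 transfection was left out, at 0.63 without K562 transfection 1 and 0.71 without K562 transfection 2 for chr12:8139472 (adjusted p = 0.053 and 0.0568). Without K562 transfection 2 chr14:93260117 fell to 0.42 (adjusted p = 0.358), chr1:241913412 to 0.42 (0.185), chr18:20047973 to 0.38 (0.187) and chr19:18497661 to 0.46 (0.0667). Without K562 transfection 1, chr1:241913412, chr18:20047973 and chr19:18497661 stood at 0.65, 0.70 and 0.65 and were not above the cutoff of that setting. Leaving out HepG2 transfection 1 or 2, which lowers the number of libraries behind the spread, ended the K562 calls of chr14:93260117 (adjusted p = 0.138 in both cases), chr1:241913412 (0.116 and 0.12) and chr18:20047973 (0.0681 and 0.0744). With the transfection as a block, chr1:241913412 (adjusted p = 0.0815) and chr14:93260117 (adjusted p = 0.0766) were not called, and with the replicate number as a block chr14:93260117 was not (0.0535).

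In HepG2, where these sites are not listed as bound, 13 members were active (8.07%), against 14.0% of all tested elements. Of the scrambles of the class 8 passed (5.84%). Among K562-only sites with RNA polymerase II 27 of 184 passed (14.7%), and among HepG2-only sites without it 44 of 298 (14.8%). In all, 5 members were active in both lines, 8 in HepG2 alone and 4 in K562 alone by these calls, against 120, 207 and 70 of all 2332 elements. Those in both were chr22:30601908, chr4:154435991, chr18:46461173, chr18:20047973 and chr1:241913412. Of the 4 called in K562 alone, chr5:19019054 was the only one whose difference between the lines passed its own test, and of the 8 called in HepG2 alone 5 did.

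Every barcode was high in HepG2 at chr18:20047973 and chr1:116674585, as at chr22:30601908 and chr18:46461173 above. At chr18:20047973 log2 RNA/DNA was 2.46 and 2.80 in HepG2 (log2 2.64 in the fit, SE 0.13, adjusted p = 2.83e-07), and its 3 barcodes spanned 2.41 to 2.99. At chr1:116674585 it was 1.79 and 2.0 in HepG2 (SE 0.10, adjusted p = 3.11e-07), with 4 barcodes from 1.71 to 2.19, and 0.08 and -0.28 in K562. The latter member had the highest DNA count of the active members, with 8284 and 7728 DNA reads in HepG2 in the 2 transfections, and its K562 and HepG2 values did not overlap. The members chr17:80774400 (0.87 and 0.98 in HepG2, adjusted p = 5.44e-06) and chr16:88700896 (0.99 and 0.78, adjusted p = 7.18e-05) were lower but likewise had all 4 barcodes above 0. At chr1:241913412 the HepG2 values were 1.35 and 1.29 (adjusted p = 8.57e-05), with barcodes from 0.18 to 2.20. These 5 members kept their HepG2 call without their highest barcode.

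A further 5 members lost the HepG2 call without their highest barcode. At chr13:36918508 log2 RNA/DNA was 1.30 and 1.49 in HepG2 (adjusted p = 4.45e-06), but barcodes a, b and c read -0.60, 2.27 and -0.14, and without barcode b the value was -0.25 (adjusted p = 0.48). At chr6:159261618 it was 2.13 and 2.19 (adjusted p = 0.000154), with 0.56, 3.64 and 0.11 for barcodes a, b and c. In this member barcode b had 86 and 76 DNA reads and 751 and 588 RNA reads in the HepG2 transfections, and without it the value was 0.46 (adjusted p = 0.526). At chr8:17207536 log2 RNA/DNA was 2.36 and 1.96 (adjusted p = 0.0452), and -0.88 (adjusted p = 0.444) without the highest barcode. The corresponding values were 1.41 and 1.31 (adjusted p = 0.0138) and -0.18 (adjusted p = 0.863) at chr4:142835203. At chr8:49838333 they were 1.31 and 0.89 (adjusted p = 0.0111) and 0.78 (adjusted p = 0.112). The value without the highest barcode was below 0 in 3 of the 5. It was below 0.66, the cutoff of the full counts, at chr6:159261618 and above 0.66 at chr8:49838333. In both the adjusted p missed the threshold, on fewer reads. The cutoff of that setting was taken anew on scrambles without their highest barcode. Leaving out HepG2 transfection 1 or 2 ended the calls of chr4:142835203 (adjusted p = 0.25 and 0.197), chr8:17207536 (0.462 and 0.339) and chr8:49838333 (0.254 and 0.0929).

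Members with 1 barcode far above their others were counted over the class. The rule also counts elements whose other barcodes are low, such as chr7:30198912 in K562, at -0.26 against -4.03, -2.75 and -4.38. A barcode more than 2 log2 units above the median of the other barcodes of its element was present in 16 of 161 members in K562 (9.94%) and in 9 in HepG2 (5.59%). Over all elements the shares were 5.57% and 3.22%, and over the scrambles of the class 11 (8.03%) and 1 (0.73%) of 137. The median SD between barcodes of a member was 0.52 in K562 and 0.38 in HepG2, against 0.36 and 0.34 over all elements. Without the highest barcode of each element 5 of the 9 K562 calls and 8 of the 13 HepG2 calls held. All passing barcodes were above 0 in 5 of the 9 and in 9 of the 13. Under every alternative of the processing tried, 3 members remained active in K562 (chr22:30601908, chr4:154435991 and chr5:19019054) and 5 in HepG2 (chr22:30601908, chr4:154435991, chr18:20047973, chr18:46461173 and chr1:116674585).

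Few members fell below the scrambles, at shares near those of all elements. A member was called lower at an adjusted p under 0.05 and a log2 RNA/DNA below the 5th percentile of the scrambles, -0.52 in K562 and -0.45 in HepG2. In K562 2 members passed (1.24%), against 1.24% of all elements. These were chr7:30198912 (-0.77 and -0.89, adjusted p = 0.0324) and chr3:151593665 (-0.41 and -0.81, adjusted p = 0.0212). The barcodes of chr7:30198912 read -0.26, -4.03, -2.75 and -4.38 in K562. Those at -4.03 and -4.38 held 3 to 7 RNA reads per K562 transfection, and the one with most DNA reads was at -0.26. The barcodes of chr3:151593665 spanned -0.96 to -0.09. In HepG2 3 passed (1.86%), against 2.44% of all elements. They were chr1:52426138 (-0.85 and -0.50, adjusted p = 0.00115), chr4:55574637 (-0.61 and -0.32, adjusted p = 0.0123) and chr11:112044004 (-0.46 and -0.46, adjusted p = 0.0213). Of the 137 tested scrambles of the class 2 were called lower in K562 (1.46%) and 4 in HepG2 (2.92%). No member was called lower in both lines. The lowest mean values in K562 were those of chr5:53379234 (-0.95 and -2.71), chr3:187036709 (-2.11 and -0.20) and chr8:17207536 (0.45 and -2.59), none of which was called. In HepG2 the lowest were chr1:52426138, chr7:35566404 (0.05 and -1.33) and chr8:6285892 (-0.21 and -1.05), of which the last 2 were not called. The K562 count was 9 without K562 transfection 1 and 0 without any of the other transfections, and the HepG2 count ran from 0 to 4 over the 4 settings that each left out 1 transfection. The call of chr7:30198912 was lost with the transfection as a block (adjusted p = 0.0665) and without any 1 of the 4 transfections (0.0645 to 0.138). That of chr3:151593665 ended without K562 transfection 2 (-0.41, adjusted p = 0.215) or either HepG2 transfection (0.0574 and 0.0576). In HepG2, leaving out transfection 1 ended the calls of chr1:52426138 (-0.50, above the cutoff of that setting), chr4:55574637 (-0.32, adjusted p = 0.175) and chr11:112044004 (0.238), and leaving out transfection 2 that of chr11:112044004 (0.213). Without the highest barcode of each element chr7:30198912 missed the p threshold (-1.82, adjusted p = 0.252), and chr3:151593665 (-0.70, adjusted p = 0.0235) and chr4:55574637 (-0.54, adjusted p = 0.0365) no longer lay below the cutoff of that setting.

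More members differed between the lines in favour of HepG2 than of K562, as was the case over all elements. In the test of the difference, K562 minus HepG2, 18 of 161 members were higher in HepG2 (11.2%), against 12.8% of all tested elements. Another 8 were higher in K562 (4.97%), against 3.95% of all. Of the 137 tested scrambles of the class 14 were higher in HepG2 (10.2%) and 4 in K562 (2.92%). The largest differences toward HepG2 were those of chr6:159261618, with -0.56 and -0.89 in K562 and 2.13 and 2.19 in HepG2 (difference -2.88, SE 0.36, adjusted p = 0.000392), and of chr18:20047973 (-2.10, SE 0.18, adjusted p = 3.15e-05). The former lost its call without the highest barcode (-1.19, adjusted p = 0.36). At chr1:116674585 the difference was -2.0 (adjusted p = 6.00e-06), at chr22:30601908 -1.66 (adjusted p = 7.04e-05) and at chr18:46461173 -1.29 (adjusted p = 0.000104), and in each of these the transfections of the lines did not overlap. At chr7:145478624 the values were -1.30 and -0.70 in K562 and 1.11 and 0.63 in HepG2 (difference -1.91, adjusted p = 0.0198), at a mean of 346 DNA reads, and the member was active in neither line. Smaller differences toward HepG2 were found at chr13:36918508 (-0.96, adjusted p = 0.0012), chr17:80774400 (-0.91, adjusted p = 0.000153) and chr14:81867361 (-0.89, adjusted p = 0.0142). The difference at chr13:36918508 changed sign to 0.35 without the highest barcode (adjusted p = 0.617). In that setting chr14:81867361 (-0.06, adjusted p = 0.924) and chr7:145478624 (-1.73, adjusted p = 0.0981) also lost their call.

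Of the 8 members higher in K562, chr5:19019054 was the single one active there. The next by size was chr6:15461661, with 0.47 and 0.53 in K562 and -0.40 and -0.25 in HepG2 (difference 0.82, adjusted p = 0.00197). Its transfections did not overlap between lines, and its K562 mean was below the cutoff for activity. The remaining 6 lay between 0.43 and 0.72, and 2 of them, chr11:112044004 and chr1:52426138, were among the 3 members called lower in HepG2. Leaving out 1 transfection gave 1 to 5 members higher in K562 and 6 to 22 higher in HepG2. Calls lost in this way included chr7:145478624 without either HepG2 transfection (adjusted p = 0.261 and 0.124) or without K562 transfection 1 (0.0665), chr14:81867361 without either HepG2 transfection (0.22 and 0.166) and chr13:36918508 without HepG2 transfection 2 (0.0553).

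Each member was then set against its own scramble. Of the 269 members 112 had both elements tested, and the site minus scramble difference of log2 RNA/DNA had a median of 0.11 in K562 and 0.08 in HepG2. Over all 901 pairs the medians were 0.11 and 0.16. The difference was positive in 68 pairs in K562 (60.7%) and in 67 in HepG2 (59.8%), against 58.8% and 63.5% of all pairs. In K562 12 members were called above their scramble (10.7%), against 14.9% of all 901 pairs, and 8 below it (7.14%), against 4.55%. In HepG2 17 were called above (15.2%), against 29.1%, and 11 below (9.82%), against 8.44%. Above in both lines were 3 members, below in both 3, and 2 were called in opposite directions, against 91, 13 and 10 of all 901 pairs.

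Over the members above their scramble, chr22:30601908 led in both lines, with site minus scramble values of 1.30 and 1.93 in K562 (fit 1.62, SE 0.18, adjusted p = 8.26e-06) and 2.96 and 3.05 in HepG2 (fit 3.0, SE 0.18, adjusted p = 4.94e-09). In K562 the next were chr16:84314840 (1.41, adjusted p = 0.0489), chr5:19019054 (1.34, adjusted p = 0.0142), chr2:38050047 (1.15, adjusted p = 0.0364) and chr14:93260117 (1.10, adjusted p = 0.00462). At chr4:154435991 the difference was 0.89 (adjusted p = 8.15e-05) and at chr6:15461661 0.86 (adjusted p = 0.000786). The scramble itself was below 0 in K562 in 5 of these 7 pairs, at -0.53 for chr16:84314840, -0.36 for chr6:15461661, -0.32 for chr22:30601908 and -0.30 for both chr2:38050047 and chr14:93260117. In HepG2 chr18:20047973 (2.60, adjusted p = 0.000207), chr13:36918508 (1.79, 7.18e-06), chr1:116674585 (1.40, 2.08e-05), chr22:26914467 (1.26, 0.046), chr1:241913412 (1.09, 7.64e-05), chr17:80774400 (0.98, 1.49e-06) and chr4:154435991 (0.94, 2.00e-05) followed. A tested scramble was at hand for 8 of the 13 members active in HepG2. All 8 were called above it, as were 4 of 7 in K562. Both calls use the same counts of the site, and the cutoff for activity was itself set on the scrambles. This overlap is therefore not independent support. Without the highest barcode of each site and each scramble, the HepG2 calls of chr13:36918508 (0.25, adjusted p = 0.671) and chr22:26914467 (0.60, adjusted p = 0.434) were lost. In K562 the same setting ended those of chr16:84314840 (1.37, adjusted p = 0.124), chr5:19019054 (2.42, 0.0789), chr2:38050047 (1.07, 0.1) and chr14:93260117 (0.53, 0.231).

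Where a member was called below its scramble, the scramble itself was active in 4 of the 11 such pairs in HepG2 and in 3 of the 8 in K562. At chr1:224272692 site minus scramble was -1.31 and -1.70 in HepG2 (adjusted p = 2.43e-06), with the scramble at 1.32 and the site at -0.19. At chr1:68080200 it was -1.10 and -1.44 (adjusted p = 0.00401), with the scramble at 1.32 and the site at 0.05, and the call was lost without the highest barcodes (-0.82, adjusted p = 0.329). In K562 the largest such differences were at chr17:48367557 (-1.40 and -0.72, adjusted p = 0.00874), chr15:59095922 (-0.95 and -0.76, adjusted p = 3.83e-06) and chr4:110622609 (-0.84 and -0.66, adjusted p = 3.65e-05). The 5 scrambles of the class active in K562 (of chr11:16385972, chr11:86977911, chr17:48367557, chr1:224272692 and chr21:38337470) had fitted values from 0.53 to 0.71. The 8 active in HepG2 (of chr11:16385972, chr19:48022949, chr1:224272692, chr1:68080200, chr21:38337470, chr4:48245481, chr6:160838746 and chr7:105650845) ranged from 0.75 to 1.32. Without their highest barcode 6 of the 8 lost the HepG2 call, among them the scrambles of chr1:224272692 (0.44, adjusted p = 0.216) and chr1:68080200 (0.41, 0.626) used in the examples above. The others were those of chr19:48022949 (0.19, 0.242), chr4:48245481 (0.51, 0.081), chr6:160838746 (0.68, 0.0769) and chr7:105650845 (0.07, 0.927). In K562 the scrambles of chr11:16385972 (0.37, 0.25), chr17:48367557 (0.39, 0.128), chr1:224272692 (0.47, 0.241) and chr21:38337470 (0.48, 0.13) lost theirs, 4 of the 5. Of the 8 in HepG2, the scrambles of chr6:160838746 (adjusted p = 0.167 and 0.357) and chr7:105650845 (0.245 and 0.418) lost their call without either HepG2 transfection, and that of chr21:38337470 without HepG2 transfection 2 (0.0512). With the transfection as a block the scramble of chr7:105650845 was not called (0.0512). In K562 all 5 scrambles lost theirs without K562 transfection 2 (adjusted p from 0.0592 to 0.0845), and those of chr11:86977911 (0.70) and chr17:48367557 (0.55) also lay below the cutoff of the setting without K562 transfection 1.

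The difference between site and scramble itself differed between the lines in 15 pairs. It was higher in HepG2 in 11 (16.5% of all pairs were so called) and higher in K562 in 4 (5.77% of all pairs). Without the highest barcode the K562 count above the scramble was 4 and the HepG2 count below it 1. The K562 count above the scramble was 20 without K562 transfection 1, 5 without K562 transfection 2 and 6 without either HepG2 transfection. Among the pairs named, chr16:84314840 lost its call in every one of these settings (adjusted p from 0.0874 to 0.199), and chr5:19019054 (0.128), chr2:38050047 (0.293) and chr14:93260117 (0.0959) lost theirs without K562 transfection 2. The calls of chr5:19019054 (0.0642 and 0.0632) and chr2:38050047 (0.0987 and 0.0996) also ended without either HepG2 transfection, and that of chr17:48367557 without K562 transfection 1 (0.145). In HepG2 the call of chr18:20047973 ended without HepG2 transfection 2 (adjusted p = 0.0512), that of chr1:68080200 without either HepG2 transfection (0.0893 and 0.174) and that of chr22:26914467 likewise (0.29 and 0.483). The last also ended with the transfection as a block (0.0641), the replicate number as a block (0.0544) or the library as a block (0.127).

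Replicate transfections ranked the members less alike in K562 than in HepG2. Over the 161 members, Pearson's r between the transfections was 0.28 in K562 (Spearman's rho 0.41) and 0.81 in HepG2 (rho 0.62), against r of 0.60 and 0.95 over the other bound sites. Over the HepG2-only sites without polymerase r was 0.37 and 0.86, and over the shared sites without it 0.46 and 0.88. The K562-only sites with polymerase had r of 0.67 and 0.92, and the scrambles of the class 0.32 and 0.60. Between the lines r was 0.17 and rho 0.22. The points share the libraries and the plasmid pool, and these values are descriptions. The median absolute difference between transfections was 0.24 in K562 and 0.19 in HepG2. Among the 80 members below the median DNA depth it was 0.42 in K562 and 0.28 in HepG2, and among the 81 at or above it 0.15 and 0.16. The shallow members held 5 of the 9 calls in K562 and 7 of the 13 in HepG2, and the deep members 4 and 6. Values of single members under the median of 2150 DNA reads were accordingly less precise.

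The sites of the class lay apart from the other sites of the library. The 269 members were spread over 23 chromosomes, and 8 of them (2.97%) had another bound site of the library within 10 kb, against 146 of the 1461 other bound sites (9.99%). The neighbour was never a member of the same class. The median distance to the nearest bound site was 529666 bp for members and 270345 bp for the other bound sites. Only 4 of the 8 were themselves tested. The active member chr6:159261618 lay 4848 bp from the K562-only site with polymerase at chr6:159256770. That neighbour was active in neither line (0.06 in K562, 0.22 in HepG2). The inactive member chr2:8821409 lay 2214 bp from the HepG2-only site without polymerase at chr2:8819195, which was active in K562 (0.55, adjusted p = 0.000486). Positions are those of the element table, a single one per site. No annotation of the files' build was used here, so genes, exons and introns at the sites are not given.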

How the data were processed

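HepG2 and K562 cells each received the plasmid library in 2 transfections, and reporter barcodes were sequenced from the DNA and the RNA of each. Per the file headers, the deposited values are raw read counts of each barcode in each library. The submitters' processing notes name Cutadapt (no version) and hg19 with no role. The aligner was not given in the sources used here. The 8 libraries held 9965393 to 10193122 reads. PCR reads without molecular identifiers are not independent molecules.

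A barcode was kept with 10 or more reads in all DNA libraries, the reads of an element's barcodes were summed, and elements with 3 or more kept barcodes were tested, 2332 in all. Libraries were scaled by TMM on the scrambled controls. RNA was tested against DNA in each line, and this contrast between lines, with the quasi-likelihood test of edgeR 4.0.16 in R 4.3.3, in a single fit of the 4 groups with no block. The p-values were adjusted by Benjamini-Hochberg over the 2332 elements. Site minus scramble differences were tested in the same way on 901 pairs in 16 columns, 8 libraries for the site and 8 for its scramble. Standard errors rest on summed reads and leave out the spread between barcodes. Values per transfection are log2 of scaled RNA over DNA with a pseudocount of 1. The p-values rest on the spread between replicate libraries, pooled over DNA and RNA of both lines, without pairing. The labels give each DNA and RNA library a replicate number, which was read as pairing the DNA and RNA of a transfection. Deviations of the libraries paired in this way correlated at r = 0.30 in HepG2 and 0.24 in K562 over 2332 elements.

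The named sites are the members and scrambles called active, the members called lower, the 10 largest called differences between lines, the 10 largest called site minus scramble differences in each line, and the 3 highest and 3 lowest members in each line, with sites decided by their highest barcode named as such. A few further sites, such as those near another site, were named after their values were seen. Members and lists were chosen with earlier results of these data known.

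Alternatives covered scaling on all elements, DESeq2 1.42.0, other read minimums, the summary over barcodes (with limma 3.58.1), the libraries in the fit, blocks, left-out transfections, the percentile and the pseudocount. The library as a block in the pair fit was added after the data were seen. The scripts were tested on simulated data. Element sequences and motifs were not analysed here.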

Additional observations from a re-analysis of the deposited data

Results flagged for a closer look

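The activity of 10 members differed between the lines by the largest amounts among those called by edgeR's quasi-likelihood test of the difference, K562 minus HepG2, which is what marked them. On the log2 scale the difference was -2.88 at chr6:159261618, -2.10 at chr18:20047973, -2.0 at chr1:116674585 and -1.91 at chr7:145478624. It was -1.66 at chr22:30601908, -1.29 at chr18:46461173, -0.96 at chr13:36918508, -0.91 at chr17:80774400 and -0.89 at chr14:81867361. The single positive value among the 10 was 1.0 at chr5:19019054. Over all called differences 18 members were higher in HepG2 and 8 in K562, against 298 and 92 of all tested elements.

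For 6 of these members the site minus scramble difference also differed between the lines in its own edgeR test. It was lower in K562 by -1.97 at chr18:20047973, -1.54 at chr1:116674585, -1.53 at chr13:36918508, -1.50 at chr14:81867361, -1.38 at chr22:30601908 and -1.16 at chr17:80774400. Both tests share the libraries of the site.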

How the results depend on the processing

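Most counts of calls over the members changed with the summary over barcodes. With the median over barcodes (limma), active members numbered 4 in K562 and 7 in HepG2, lower members 0 and 0, members higher in K562 0 and in HepG2 4, members above their scramble 2 in K562 and 8 in HepG2, and below it 0 and 1. The site minus scramble difference was then higher in K562 in 0 pairs and in HepG2 in 0. Without the highest barcode, lower members in K562 numbered 1, members higher in K562 5 and in HepG2 10, members above their scramble 4 in K562 and 11 in HepG2, below it 4 and 1, and pairs with a difference higher in K562 2. With the 99th and 1st percentiles, 3 members were active and 0 lower in K562, and 1 was lower in HepG2. With no minimum count, which tests all 269 members, 1 was lower in HepG2, 3 were higher in K562 and 6 lay above their scramble in K562. With at least 50 DNA reads per barcode 4 were lower in K562, with DESeq2 6, and with the libraries of K562 alone 0, while 6 lay above their scramble there. DESeq2 was not run on the pairs. Beside these counts of 0 and those without 1 transfection, the members past the same cutoffs at an unadjusted p under 0.05 numbered 0 to 10 for lower members, 7 for the difference between lines and 6 to 15 for scramble comparisons.

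Without 1 transfection the counts ran from 6 to 7 for active members in K562 and from 10 to 18 in HepG2, from 0 to 9 and from 0 to 4 for lower members, from 1 to 5 for members higher in K562 and from 6 to 22 for those higher in HepG2. They ran from 5 to 20 above the scramble in K562, from 5 to 8 below it, from 7 to 22 above it in HepG2 and from 4 to 12 below it, and from 0 to 7 and 5 to 13 for pairs with a difference higher in K562 and in HepG2. The median log2 RNA/DNA of the members ran from 0.021 to 0.074 in K562 and from 0.0915 to 0.0928 in HepG2 in these settings. In HepG2 it was 0.048 with no minimum count, 0.072 with at least 50 reads, -0.018 with scaling on all elements, 0.0058 with barcode medians, -0.091 without the highest barcode and 0.065 with a pseudocount of 5. In K562 it was -0.0095 with scaling on all elements, -0.031 with barcode medians and -0.16 without the highest barcode.

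Of 95 single sites and contrasts named, 37 kept direction and side of the threshold in every alternative and 6 turned in sign. Those were chr1:241913412 in K562 (-0.87 without the highest barcode, -0.62 with barcode medians), chr12:8139472 in K562 (-0.025 without the highest barcode), chr13:36918508 in HepG2 (-0.25 and -0.14) and its difference between lines (0.35 and 0.33), chr4:142835203 in HepG2 (-0.18 without the highest barcode) and chr8:17207536 in HepG2 (-0.88 and -0.54). The setting without the highest barcode uses fewer reads and keeps the scaling of the full counts. Its values were therefore lower in general, and 0 no longer marked the typical scramble. The -0.025 of chr12:8139472 lay above the member median of that setting in K562, -0.16. The cause of the turns was not tested further. With the transfection as a replicate block the active members numbered 8 in K562 and 15 in HepG2, with the replicate number as a block 10 and 15, and apart from the 5 sites and scrambles given in the report the block ended no call of a named site. Depth limits the 108 members that were not tested and the 80 below the median DNA count.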
